A study of Mus musculus with 2 samples.

Results

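The microRNA genes Mir23a, Mir27a and Mir24-2 on chromosome 8 and their paralogues Mir23b, Mir27b and Mir24-1 on chromosome 13 form 2 clusters of 3 precursors. They were taken by their GENCODE M21 symbols, and all 6 of the 2202 microRNA genes in the count tables were found and detected, a detected gene having at least 10 reads in each library. The data are small RNA libraries (RNA shorter than 30 bases) made with total RNA from the left cerebral cortex. The mice were adult males, 8 to 10 months old, of the strain 5xFAD/CAST. In the transgenic 5xFAD model mutant human amyloid precursor protein and presenilin genes are driven in neurons by the Thy1 promoter, and CAST usually stands for an inbred line of wild-mouse origin. Whether these animals carried the transgenes is not in the labels. There were 2 libraries, biological replicates 1 and 2 of 1 group, from tissue samples with the same donor identifier, and no control mice were analysed here. Values with an error are mean ± SD of these libraries (n = 2), whose spread, and any p-value resting on it, may reflect technical differences as well as animals.

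Both clusters are transcribed as a primary RNA that is cut into the 3 hairpins, each of which is then trimmed to mature microRNAs from its 5′ arm (5p) and its 3′ arm (3p). Positions 2 to 8 of a mature microRNA, the seed, direct it to its targets, so paralogues with the same seed can repress the same messages. The clusters are best known for their roles in endothelial cells and the growth of vessels. Among the documented targets are lamin B1, a nuclear envelope protein, for miR-23, the adipocyte regulator Pparg for miR-27 and the cell cycle factor E2f2 for miR-24. In the brain, miR-23a has been linked to the maturation of oligodendrocytes, and the members of the chromosome 13 cluster are counted among astroglial microRNAs.

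The mature sequences show how far reads of the paralogues can be told apart (RefSeq, GRCm38.p6, 5′ to 3′, seed in capitals):
mmu-miR-23a-3p: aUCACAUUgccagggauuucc
mmu-miR-27a-3p: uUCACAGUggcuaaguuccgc
mmu-miR-27b-3p: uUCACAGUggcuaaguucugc
mmu-miR-24-3p: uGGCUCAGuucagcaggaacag
mmu-miR-24-2-5p: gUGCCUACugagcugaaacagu
mmu-miR-24-1-5p: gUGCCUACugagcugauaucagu

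Counted from 1 at the 5′ end, miR-27a-3p differs from miR-27b-3p by the single substitution C19U. The seeds of both are the same. The stretch of the Mir23b hairpin that matches miR-23a-3p differs from it by the single substitution U19A, again outside the seed. A read that starts at the 5′ end of these 3p arms and stops after 18 bases therefore matches both loci, and from 19 bases on it matches 1 annotated hairpin. The 22 bases of miR-24-3p are made from both Mir24-1 and Mir24-2 with no difference, so no read within them can be assigned to either locus. The 5p arms of Mir24-1 and Mir24-2 share their first 16 bases and their seed, and differ from position 17 on.

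The hairpins put these differences in context (capitals mark the longest stretch that a hairpin shares with its paralogue):
Mir23a: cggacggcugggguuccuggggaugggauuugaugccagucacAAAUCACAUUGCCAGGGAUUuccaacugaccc
Mir23b: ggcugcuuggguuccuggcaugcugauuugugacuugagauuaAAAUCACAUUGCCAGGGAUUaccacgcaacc
Mir27a: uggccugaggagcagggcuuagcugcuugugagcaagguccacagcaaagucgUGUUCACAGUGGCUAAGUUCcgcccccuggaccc
Mir27b: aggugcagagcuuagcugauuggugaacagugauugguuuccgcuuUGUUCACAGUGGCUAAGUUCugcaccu
Mir24-2: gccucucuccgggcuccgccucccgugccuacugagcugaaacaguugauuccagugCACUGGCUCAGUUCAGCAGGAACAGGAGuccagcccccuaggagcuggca
Mir24-1: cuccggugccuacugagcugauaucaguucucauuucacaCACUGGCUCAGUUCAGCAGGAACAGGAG

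The shared stretch covers 20 bases in the miR-23 pair, 20 in the miR-27 pair and 28 in the miR-24 pair. A global alignment of the whole hairpins, the shared stretch included, gave 66.2% identical columns for Mir23a and Mir23b. It gave 54.0% for Mir27a and Mir27b and 53.6% for Mir24-2 and Mir24-1. Among all 1005 mouse hairpins of the RefSeq table, every window of 22 bases in Mir23a, Mir23b, Mir27a and Mir27b occurs at 1 place only. In Mir24-1 this holds for 40 of 47 such windows and in Mir24-2 for 77 of 86, the others lying over the 3p arm. The rest of the genome was not searched for matches.

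On chromosome 8 the hairpins lie on the plus strand within 404 bases (mm10), Mir23a at chr8:84208518-84208592, Mir27a at chr8:84208672-84208758 and Mir24-2 at chr8:84208815-84208921. No annotated gene encloses this cluster on either strand. The non-coding RNA gene Gm26532 (chr8:84208920-84209609), on the same strand, starts within the last bases of Mir24-2, and the protein-coding gene Zswim4 ends 1757 bases downstream on the other strand. On chromosome 13 the hairpins lie on the plus strand within 792 bases, Mir23b at chr13:63300484-63300557, Mir27b at chr13:63300712-63300784 and Mir24-1 at chr13:63301208-63301275. They are inside 2010111I01Rik (named Aopep in RefSeq), which encodes aminopeptidase O and is transcribed from the same strand, and inside an intron of the DNA repair gene Fancc on the other strand. Mir23b is intronic in all 9 transcripts of 2010111I01Rik that span it. An annotated exon covers Mir27b in 1 of 9 transcripts and Mir24-1 in 4 of 11. The order of the 3 hairpins is the same in both clusters, as the layout of the precursor genes shows.

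**Figure D1:**
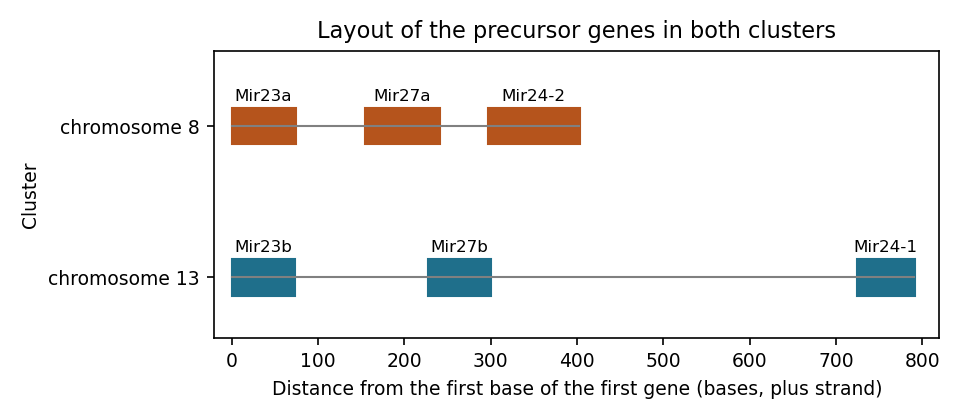
Position of the 6 precursor genes along the plus strand, in bases from the start of the first gene of each cluster; boxes are drawn to scale. The chromosome 13 cluster spans 792 bases and the chromosome 8 cluster 404, and the widest gap, 423 bases, lies between Mir27b and Mir24-1.

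Replicate 1 had 4929428 sense reads in microRNA genes and replicate 2 had 4441328. Levels are given in CPM, the counts per 1000000 of these reads, where a single read stands for 0.203 CPM in replicate 1 and for 0.225 CPM in the other library. Reads that mapped to several places have a total of their own, 6320188 in replicate 1 and 5615203 in replicate 2, and are not in the gene counts. Counts are given per hairpin, so the arms are not told apart. Of the neuronal microRNAs on a list of 12, 10 were detected, at a summed level of 54945 and 65872 CPM in replicates 1 and 2. The lists of other cells used below had these summed levels in replicates 1 and 2: vessel wall 20418 and 21812 CPM, oligodendrocytes 3393 and 5622 CPM, other astroglial microRNAs 15677 and 17344 CPM, microglia and leukocytes 1934 and 2080 CPM, and red blood cells 602 and 88.5 CPM. On these lists Mir126b, Mir145b, Mir142b and Mir451b had no read in either library. Each sum, the neuronal one included, lacks whatever reads of its microRNAs matched more than a single place. How much each list loses in this way was not measured, so the sums do not rank the cell types.

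The 6 genes together took 4.13% of the assigned reads in replicate 1 and 2.48% in replicate 2. Nearly all of these reads came from the first hairpin of each cluster: Mir23a and Mir23b supplied 96.3% of the members' reads in replicate 1 and 92.3% in replicate 2. The chromosome 13 cluster held the larger part, 63.6% in replicate 1 (exact 95% binomial interval 63.4 to 63.8) and 67.0% in replicate 2 (66.8 to 67.3). Intervals on reads cover counting error only, and they treat each read as independent. No molecular identifiers were used here, so copies of the same molecule were not told apart. All these shares leave out reads that mapped to several places, such as those of the mature sequence that both clusters have in common. How far such reads would change the shares was not measured, and the intervals do not cover it.

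Mir23b was the most abundant of the 6 in both libraries. It had 123424 reads (25038 CPM) in replicate 1 and 66210 reads (14908 CPM) in replicate 2, a mean of 19973 ± 7163 CPM, and its mean was at rank 11 of the 417 detected genes. Mir23a had 72797 reads (14768 CPM) and 35498 reads (7993 CPM), a mean of 11380 ± 4791 CPM and rank 18. Both miR-23 genes were lower in replicate 2, and the lower level of Mir23b stood just above the higher level of Mir23a.

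The miR-27 genes were far lower and unequal. Mir27b had 6050 reads (1227 CPM) in replicate 1 and 7555 reads (1701 CPM) in replicate 2, a mean of 1464 ± 335 CPM at rank 78. Mir27a had 900 reads (183 CPM) and 627 reads (141 CPM), a mean of 162 ± 29.3 CPM at rank 179. The miR-27 genes moved in opposite directions, Mir27b being higher and Mir27a lower in replicate 2.

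The miR-24 genes had the fewest reads. Mir24-2 had 421 reads (85.4 CPM) in replicate 1 and 226 reads (50.9 CPM) in replicate 2, a mean of 68.1 ± 24.4 CPM at rank 224. Mir24-1 had 138 reads (28.0 CPM) and 134 reads (30.2 CPM), a mean of 29.1 ± 1.54 CPM at rank 268. These reads can stem only from the parts of the hairpins that set the loci apart, if reads that mapped to several places were left out of the gene counts. The level of mature miR-24-3p, which is identical at both loci, cannot be read from them, and the gap between miR-24 and the other members is therefore not a measured gap between mature microRNAs.

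In order of level, the genes ran from Mir23b through Mir23a, Mir27b, Mir27a and Mir24-2 to Mir24-1. No neighbours in this order overlapped in their ranges over the 2 libraries. The step from Mir23b to Mir23a was 1.70-fold in replicate 1 and 1.87-fold in replicate 2, that from Mir27a to Mir24-2 was 2.14-fold and 2.77-fold, and that from Mir24-2 to Mir24-1 was 3.05-fold and 1.69-fold. The other steps were wider in both libraries, at 12.0-fold and 4.70-fold from Mir23a to Mir27b and at 6.72-fold and 12.0-fold from Mir27b to Mir27a.

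**Figure D2:**
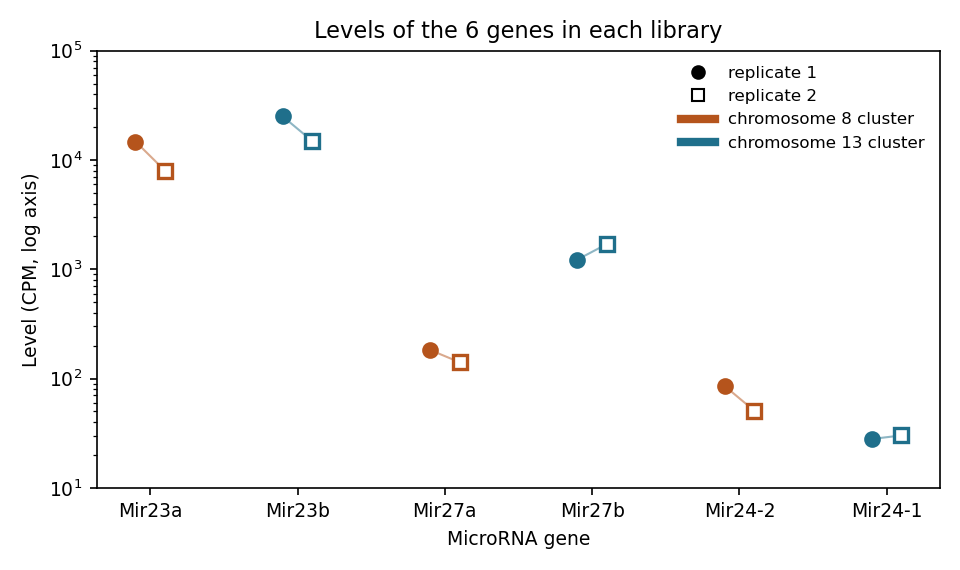
Level of each gene in CPM on a log axis, with replicate 1 as filled circles and replicate 2 as open squares, and the chromosome 8 cluster in orange and the chromosome 13 cluster in blue. The miR-23 genes lie between 7993 and 25038 CPM, the miR-24 genes between 28.0 and 85.4 CPM.

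Member by member, the chromosome 13 gene had more counted reads for miR-23 and miR-27, and fewer for miR-24. These ratios compare reads within a library and do not depend on scaling. Over 2 libraries an exact two-sided sign-flip permutation test of such a ratio cannot go below p = 0.5, which is what it gave for each of the 3 pairs, and the intervals are exact binomial intervals on the reads of each library. For miR-23, Mir23b had 1.70 reads for each read of Mir23a in replicate 1 (1.68 to 1.71) and 1.87 in replicate 2 (1.84 to 1.89), a mean log2 ratio of 0.83 ± 0.10. Mir23b thus gave 62.9% and 65.1% of the reads of the pair.

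For miR-27 the balance lay much further towards chromosome 13. Mir27b had 6.72 reads for each read of Mir27a in replicate 1 (6.27 to 7.22) and 12.0 in replicate 2 (11.1 to 13.1), a mean log2 ratio of 3.17 ± 0.60. It gave 87.1% and 92.3% of the reads of the pair.

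For miR-24 the balance of the reads that could be placed lay towards chromosome 8. Mir24-1 had 0.328 reads for each read of Mir24-2 in replicate 1 (0.268 to 0.398) and 0.593 in replicate 2 (0.475 to 0.737), a mean log2 ratio of -1.18 ± 0.60. Mir24-1 gave 24.7% and 37.2% of the pair's reads, and reads of the shared 3p sequence are missing from both sides of this ratio. Of the windows of 22 bases, 77 in Mir24-2 and 40 in Mir24-1 occur at 1 place only. How far this difference bears on the miR-24 ratio was not measured. The ranges of the 3 log2 ratios over the libraries did not overlap. The counted reads thus had no common balance over the pairs, but for miR-24 this is not a balance of the mature microRNAs.

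**Figure D3:**
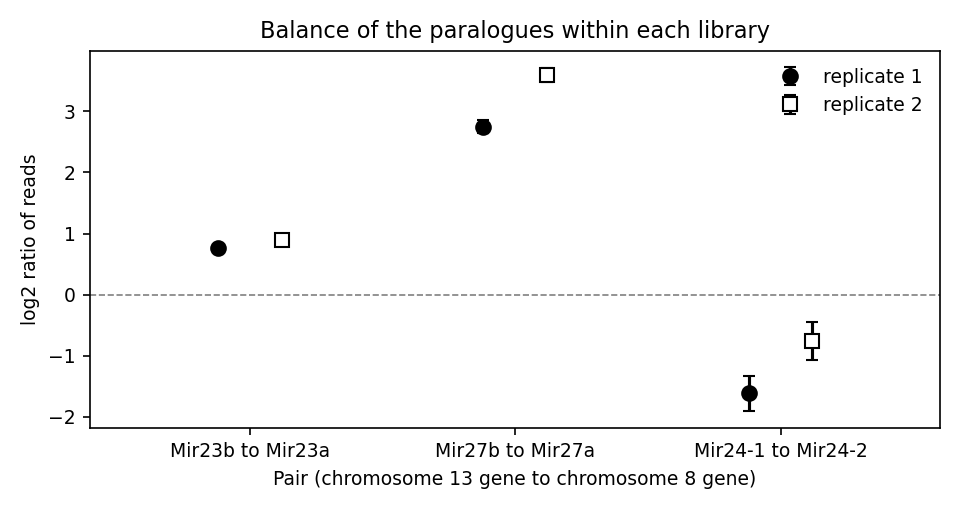
Log2 ratio of reads of the chromosome 13 gene to the chromosome 8 gene for each pair, with exact 95% binomial intervals, replicate 1 as filled circles and replicate 2 as open squares. Values above 0 mean more reads from chromosome 13, and every pair lies higher in replicate 2 than in replicate 1.

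All 3 pairs stood further towards the chromosome 13 gene in replicate 2. The log2 ratio was higher in replicate 2 by 0.14 for miR-23 (exact conditional 95% interval 0.11 to 0.16), by 0.84 for miR-27 (0.69 to 1.00) and by 0.86 for miR-24 (0.42 to 1.28). The interval of miR-23 did not overlap those of the other pairs, while those of miR-27 and miR-24 overlapped widely. These intervals compare the reads of these 2 libraries and not conditions.

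Within a cluster the hairpins stood in unlike proportions. On chromosome 8, Mir23a had 80.9 reads for each read of Mir27a in replicate 1 and 56.6 in replicate 2. On chromosome 13, Mir23b had 20.4 reads for each read of Mir27b in replicate 1 and 8.76 in replicate 2. The share of the miR-27 member was higher in replicate 2 in both clusters, going from 1.21% to 1.72% of the reads on chromosome 8 and from 4.67% to 10.2% on chromosome 13. As a log2 ratio of miR-27 to miR-23, the gain was 0.51 on chromosome 8 (0.36 to 0.66) and 1.22 on chromosome 13 (1.17 to 1.27), intervals that do not overlap. The miR-24 member took 0.568% and 0.622% of the reads on chromosome 8, and 0.106% and 0.181% on chromosome 13. Shares within a cluster likewise leave out reads that mapped to several places, such as those of the miR-24 sequence common to both clusters.

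Each gene was then compared between the libraries by an exact binomial test, two-sided and conditional on the library totals, adjusted by Benjamini-Hochberg over all 417 detected genes. This test asks whether 2 libraries of the same group differ beyond counting error, and 59.2% of all detected genes did so at an adjusted p under 0.05 (34.5% lower and 24.7% higher in replicate 2). When levels are scaled to all reads of a library instead, every log2 ratio shifts by -0.20, and 197 genes were lower and 73 higher, in place of 144 and 103. Under a stricter filter of 100 reads, which all 6 members pass, 218 of 270 genes differed. Of the 6 members, 4 were lower in replicate 2, 1 was higher and 1 did not pass. Their median log2 ratio of replicate 2 to replicate 1 was -0.56, against -0.05 over all detected genes, and their median distance from 0 was 0.61 against 0.37.

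The miR-23 genes fell together. Mir23a differed by a log2 ratio of -0.89 (exact 95% interval -0.90 to -0.87) and Mir23b by -0.75 (-0.76 to -0.73), with adjusted p-values too small to be represented. By distance from 0 they stood at ranks 67 and 91 of the 417 genes. Mir24-2 fell by a similar -0.75 (-0.99 to -0.51, adjusted p = 5.48e-10 in the exact binomial test), at rank 92. Mir27a fell by less, at -0.37 (-0.52 to -0.22, adjusted p = 1.75e-06 in the exact binomial test), at rank 211.

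Mir27b was the only member to rise, by 0.47 (0.42 to 0.52, adjusted p = 1.39e-79 in the exact binomial test), at rank 171. Mir24-1 stood at 0.11 (-0.25 to 0.46, adjusted p = 0.648 in the exact binomial test). Its interval includes no change and overlaps the interval of Mir27b, but ends just below the value of Mir27b. The 3 members on chromosome 8 were thus all lower in replicate 2, while those on chromosome 13 went in different directions. Summed over both loci, the counts of the miR-23 genes stood at 39806 and 22900 CPM in replicates 1 and 2. Those of the miR-27 genes stood at 1410 and 1842 CPM and those of the miR-24 genes at 113 and 81.1 CPM. The miR-24 sum lacks the reads of miR-24-3p, which cannot be placed, so it is not a level of the mature family.

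**Figure D4:**
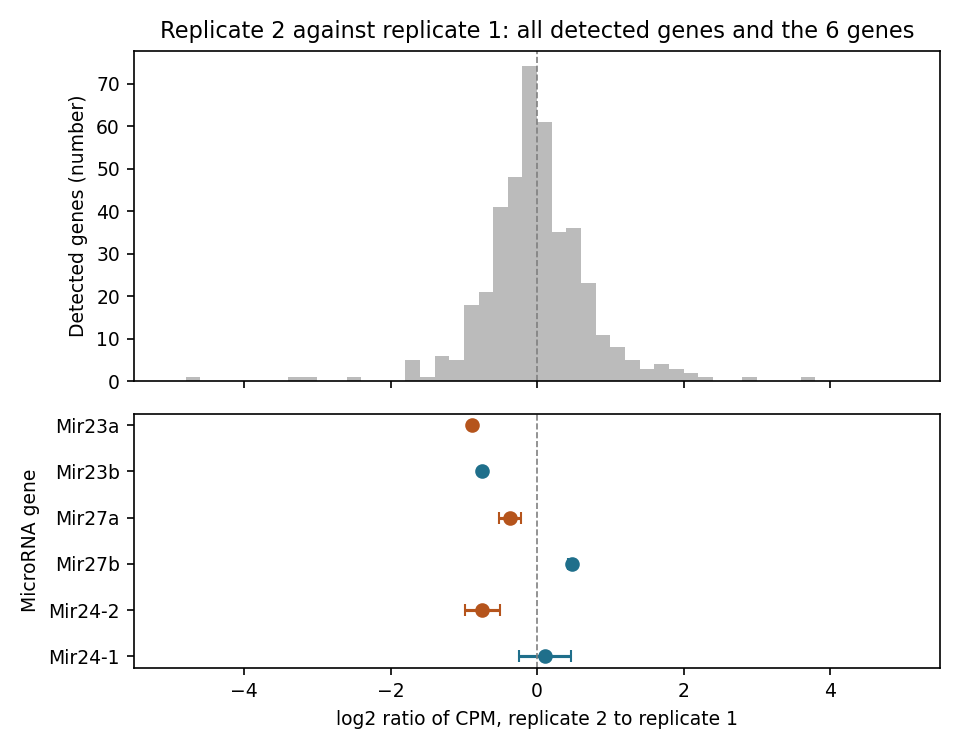
Log2 ratio of CPM in replicate 2 to replicate 1, as a histogram of the 417 detected genes (top) and for the 6 genes with exact 95% intervals (bottom), the chromosome 8 cluster in orange and the chromosome 13 cluster in blue. Mir23a, Mir23b and Mir24-2 lie between -0.89 and -0.75, and Mir27b lies at 0.47.

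Among the lists of cell markers, the summed level of red blood cell microRNAs had a log2 ratio of -2.77 between the libraries, with 2 of 3 detected members lower in replicate 2 and 1 higher. The oligodendrocyte sum had one of 0.73, with 2 of 3 higher and none lower. The neuronal sum had a log2 ratio of 0.26, but 7 of its 10 detected members were lower in replicate 2 and 1 was higher, namely Mir132 (19682 and 44698 CPM). Of the leading 3 neuronal members, Mir128-1 (log2 ratio -0.86) and Mir137 (-0.96) were lower to a similar extent as the miR-23 genes, unlike Mir132. Mir99a (-0.86) and Mir26b (-0.76), which are on none of these lists, were also lower to that extent. The other astroglial list (0.15) had 3 of 5 higher and 1 lower. Most of its gain lay in Mir31 (115 and 1551 CPM), and its most abundant member Mir29a had a log2 ratio of -0.02 and was called lower. The vessel list (0.10) had 2 of 3 detected members higher, Mir145a (259 and 288 CPM) and the endothelial Mir126a (13131 and 14813 CPM). The other detected member, Mir143 of smooth muscle and pericytes (7028 and 6711 CPM), was lower. The microglia and leukocyte list (0.10) had 1 of 5 higher and 2 lower. The part of these lists in the differences between the libraries was not tested, and in bulk tissue fewer cells of a type and less RNA per cell cannot be told apart.

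The 2 clusters were set beside every group of at least 3 detected microRNA genes on the same strand with gaps of at most 10 kb, 16 groups in all. The leading gene took a larger share of the reads in both clusters than in most of these groups, 97.9% for Mir23a and 92.4% for Mir23b as the mean over the libraries, against a median of 61.0%. Over the 10 groups of exactly 3 detected genes the median was 68.7%. Only the group of Mirlet7d, at 98.3%, had a higher share than Mir23a. Reads that mapped to several places, such as those of miR-24-3p, are in none of these shares. How far this raises the share of the leading gene was not measured. The members of the chromosome 8 cluster kept close together between the libraries, with a distance of 0.51 between their lowest and highest log2 ratio. Those of the chromosome 13 cluster lay 1.22 apart, near the median of 1.20 over the 16 groups, whose distances ran from 0.18 to 2.55. Over the 10 groups of exactly 3 detected genes the median distance was 1.00. These are descriptions of 2 libraries, with no test.

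**Figure D5:**
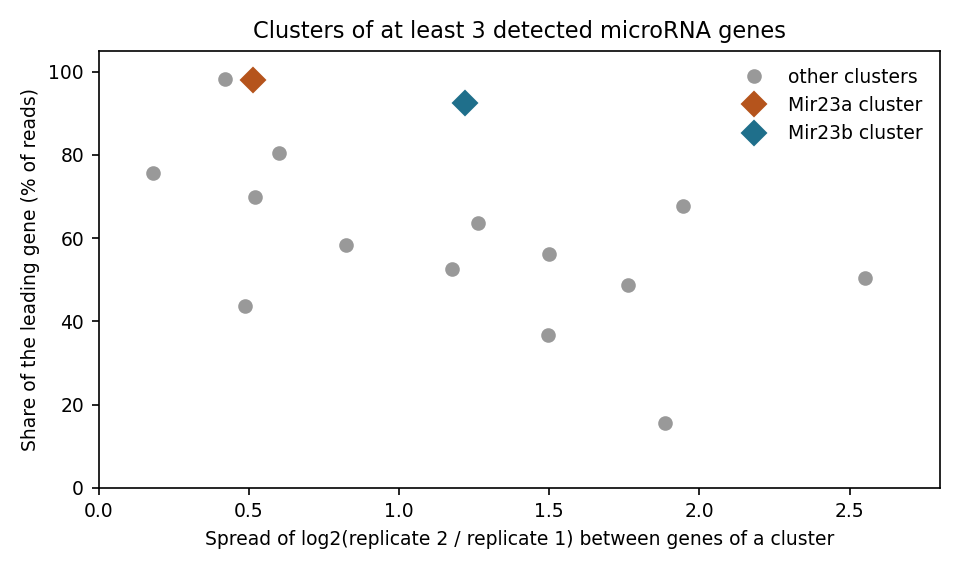
Each point is a group of at least 3 detected microRNA genes, with the distance between its lowest and highest log2 ratio of replicate 2 to replicate 1 on the horizontal axis and the share of its reads from the leading gene (mean over the libraries) on the vertical axis. The chromosome 8 cluster lies at 0.51 and 97.9%, the chromosome 13 cluster at 1.22 and 92.4%. Reads that mapped to several places, such as those of miR-24-3p, are not in the shares.

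The strand of the reads decides whether the miR-24 genes are seen at all. Another microRNA gene lies opposite each of them, Mir3074-1 (chr13:63301199-63301283) opposite Mir24-1 and Mir3074-2 (chr8:84208825-84208907) opposite Mir24-2. In the deposited counts without regard to strand all 4 genes stand at 0, while the other 4 members have the same counts as in the sense column. On the sense strand Mir3074-1 had 51 and 49 reads (10.3 and 11.0 CPM), and Mir3074-2 had 0 and 2 reads, where a count of 0 in replicate 1 allows up to 0.609 CPM. The mature miR-3074-5p is annotated with the same 22 bases at both loci, so its reads, like those of miR-24-3p, cannot be placed.

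The detected genes closest to each member over the 2 libraries were sought by the distance of log2(CPM + 1). Mir23a was nearest to Mir128-1 (13556 and 7493 CPM, distance 0.15), a microRNA of neurons, and to Mir26b (distance 0.20). Mir23b was nearest to Mir99a (28644 and 15748 CPM, distance 0.21), with the next gene, Mir29a, much further away at 0.83. Mir27b was nearest to Mir181b-2 (1213 and 1634 CPM, distance 0.06) and Mir29c (distance 0.11). Mir27a was nearest to Mir16-2 (179 and 150 CPM, distance 0.09) and Mir299a (distance 0.11). Mir24-2 was nearest to Mir122 (distance 0.30) and Mir1264 (0.33), and Mir24-1 to Mir582 (0.16) and Mir6944 (0.21). With 2 libraries such likeness rests mainly on level.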

How the data were processed

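The authors deposited, for each library, a table of raw read counts for 2202 microRNA genes in 3 columns (without regard to strand, sense, opposite strand), made on mm10 with GENCODE M21 per the notes deposited with the files. For the aligner and the counter, the name and the settings were not given in the sources used here, and the meaning of the columns is inferred from their layout. The 4 lines of unassigned reads were left out of the library sizes: 25.6% and 34.3% of reads were unmapped, 38.5% and 33.0% mapped to several places, and 5.82% and 6.54% lay outside microRNA genes in replicates 1 and 2. How differences between 5xFAD/CAST and mm10 bear on the counts was not measured.

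CPM, exact binomial tests and intervals (SciPy 1.17.1, Python 3.11.15) were computed from the sense counts. The quasi-likelihood test of edgeR has no contrast to test in a single group and was not used. Alternatives were scaling by TMM factors (edgeR 4.0.16) or DESeq2 1.42.0 size factors (R 4.3.3) or to all reads of a library, the column without strand, no filter on low counts or one of 100 reads, each library alone, and gaps of 50 kb for clusters. On simulated data for replicate 2 against replicate 1 (411 genes), the test called 66.7% of genes changed 1.5-fold and 77.6% at 2-fold. It called 100% at 4-fold and 8-fold, and 2.15% of unchanged genes. The simulated counts varied by counting error alone, so these values do not cover other variation between libraries of a group. Changed genes were drawn from the less abundant detected genes, which leaves out Mir23a, Mir23b and Mir27b.

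The members, lists and tests were chosen with earlier results of these data known. Named genes are the 6 members, genes that overlap them, the 2 detected genes nearest to each member by the distance of log2(CPM + 1), and the leading 3 of each of 6 marker lists. Of those leading genes, Mir132 stood at 19682 and 44698 CPM, Mir137 at 12338 and 6351, Mir338 at 2323 and 3117, Mir219a-2 at 1064 and 2501, Mir219a-1 at 5.48 and 4.50, Mir31 at 115 and 1551, Mir150 at 1073 and 874, Mir146 at 596 and 949, Mir142 at 132 and 145, Mir451a at 529 and 52.2, Mir144 at 57.8 and 6.30, and Mir486 at 15.0 and 29.9 CPM. Sequences are from RefSeq, where all 6 members had a hairpin.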

Additional observations from a re-analysis of the deposited data

Results flagged for a closer look

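Opposite-strand reads at Mir24-1, a column that the comparisons of levels did not use, numbered 51 in replicate 1 and 49 in replicate 2, above the 3 reads that a count of 0 allows. They are the reads counted as sense for Mir3074-1, whose annotated hairpin holds the whole of the 68 bases of Mir24-1 in reverse complement. At Mir24-2 the opposite strand had 0 and 2 reads, and at Mir23a, Mir23b, Mir27a and Mir27b it had 0 in both libraries. What gives rise to the reads at Mir24-1 was not tested.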

How the results depend on the processing

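Scaled to all reads of a library, unassigned reads included, the mean levels were 3263 CPM for Mir23a, 45.9 for Mir27a, 19.5 for Mir24-2, 5710 for Mir23b, 407 for Mir27b and 8.15 for Mir24-1; the lower values follow from the larger total. In the column without strand Mir24-1 and Mir24-2 stood at 0, and neither their ratio nor their tests could be computed. All other alternatives kept the direction of each value and its side of the threshold, except that the ratio of Mir24-1 between libraries, which never passed, changed sign from 0.11 to -0.09 when scaled to all reads. With either library left out, the log2 ratio of the paralogues ran from 0.76 to 0.90 for miR-23, from 2.75 to 3.59 for miR-27 and from -1.61 to -0.75 for miR-24. Of the members, 5 of 6 differed between the libraries under each scaling. Among all 417 detected genes 247 did so with TMM or DESeq2 factors and 270 when scaled to all reads. In the column without strand 4 of 4 members differed, beside 226 of 392 genes. The number of all genes that differed ran from 218 to 275, but out of unlike totals. The 218 were out of 270 genes left by the filter of 100 reads, which all 6 members pass. The 275 were out of 766 genes tested with no filter. The precision is limited by the 2 libraries, by the low counts of Mir24-1 (138 and 134 reads) and by reads that mapped to several places and are in no gene count.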
